A study of Mus musculus with 12 samples.

Results

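The genes described here write, copy, erase or protect DNA methylation: Dnmt1, Dnmt3a, Dnmt3b, Dnmt3l, Tet1, Tet2, Tet3, Uhrf1, Uhrf2 and Zfp57. They were chosen by name, and every array probe that the scanner files assign to one of them was taken, 21 probes of 10 genes among 55681 probes that are not controls and 22282 named genes. Dnmt1, Dnmt3a and Dnmt3l had 1 probe each, Uhrf1, Uhrf2 and Zfp57 had 2, and Dnmt3b, Tet1, Tet2 and Tet3 had 3. RNA levels come from Agilent arrays with 1 colour, 12 in all and 1 for each sample. Mouse embryonic stem cells (mESC) gave 4 samples of the phenotype Tbx3-low and 4 of the phenotype Tbx3-high. Mouse induced pluripotent stem cells (iPSC), somatic cells reprogrammed to a state like that of embryonic stem cells, gave 2 samples labelled Tbx3 null and 2 labelled Tbx3 wildtype. Tbx3 is a T-box transcription factor, and the series asked about its part in the network that keeps stem cells pluripotent. Strain, medium, feeder layer, the way the mESC were sorted by Tbx3, the null allele and the number of lines are not given by the labels. Nothing says that the samples of a group were separate cultures, so p-values cover only the spread among these samples, which may be technical.

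In mammals most DNA methylation lies on the cytosine of CpG dinucleotides. Dnmt3a and Dnmt3b place new methyl groups, helped by the inactive relative Dnmt3l, and Dnmt1 copies the pattern after replication once Uhrf1 has bound the hemimethylated site. The Tet enzymes oxidise methylcytosine on the way to its removal, and Zfp57 keeps the methylation of imprinting control regions through the erasure that follows fertilisation. Mouse stem cells of the naive state and of the later epiblast are known to differ widely in total methylation, and Dnmt3b is a known marker of the epiblast after implantation. RNA levels were measured here, and neither protein nor DNA methylation was.

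Levels are log2 signals after subtraction of each array's 75th percentile, so a difference of 1 is a doubling. A change is the difference of 2 group means, given with its standard error (SE), from a limma fit over all 12 arrays. Its p-value is that of limma, adjusted by Benjamini-Hochberg over all probes tested. A probe is said to have risen or fallen where that adjusted p was under 0.05. All 10 pluripotency markers (Pou5f1, Sox2, Nanog and others) were well above background on every array, with array means of 4.93 to 5.24. All 4 germ cell markers were also above background throughout, at means of 0.58 to 1.92. Signal above background thus does not by itself identify a cell type, nor tell mESC from iPSC. The 75th percentile of signal ran from 279.9 to 412.0 for mESC samples and from 619.6 to 898.2 for iPSC samples. Among the mESC samples 55.9% to 64.8% of spots exceeded background clearly. That share was 68.6% and 68.0% for the wild-type iPSC and 63.0% and 62.4% for the null-labelled ones. The single Tbx3 probe (chr5:120134511-120134570, mm9) read 5.90 to 5.92 in Tbx3-low and 7.20 to 7.28 in Tbx3-high mESC. It was not lower in the null-labelled iPSC, at 5.68 and 5.66 against 5.16 and 5.52 in the wild type, a change of 0.33 ± 0.11 (SE, adjusted p = 0.0458). Which part of the gene the null allele lacks is unknown here, so the probe does not check that label and the samples are called null-labelled. The mESC and iPSC arrays lay on separate slides, so their changes were compared with each other but not their levels. Tbx3-low arrays were in slide columns 1 and 2 and Tbx3-high arrays in columns 3 and 4, and wild-type and null-labelled arrays were split in the same way, so group and slide column cannot be told apart.

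In the Tbx3-high mESC, Zfp57 and Tet2 rose most among the member genes, Zfp57 2.11-fold and Tet2 1.83-fold by the probe of highest signal, while the other Zfp57 probe rose less than those of Tet2 that passed. Dnmt3l rose 1.26-fold, Dnmt3b was 1.29-fold lower, and 1 of the 3 Tet1 probes fell. Of the 21 member probes 19 passed the filter on dim probes, and of these 5 rose, 4 fell and 10 did not pass the test. Among all 30691 probes tested 25% passed, 13.2% higher and 11.8% lower. By the probe of highest signal 3 of the 10 member genes rose and 2 fell, where 30.4% of all genes passed, 15.8% higher and 14.5% lower. The mESC groups did not overlap for the 9 probes that passed, and for 28.2% of all probes. The median change was 0.01 over the member probes and 0.03 over all probes.

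In the null-labelled iPSC, Dnmt3b, Dnmt3l and Uhrf2 rose between 2.12-fold and 2.78-fold over their probes. 1 of the 2 Uhrf1 probes rose 1.35-fold, and Zfp57 and the Tet genes had no probe that passed. Of the 20 member probes tested 7 rose, 0 fell and 13 did not pass, against 28.1% of all 36712 probes, 15.5% higher and 12.6% lower. Several of the 7 are probes of the same gene. By the probe of highest signal 3 of the 10 member genes rose and 0 fell, or 30.0%. Of all genes 35.2% passed, 20.2% higher and 15.1% lower. All null-labelled arrays lay above the wild type for 11 of the 20 probes and below it for 4, where 66.5% of all probes had groups that did not overlap. The median change was 0.23 over the member probes and 0.06 over all probes.

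**Figure D1:**
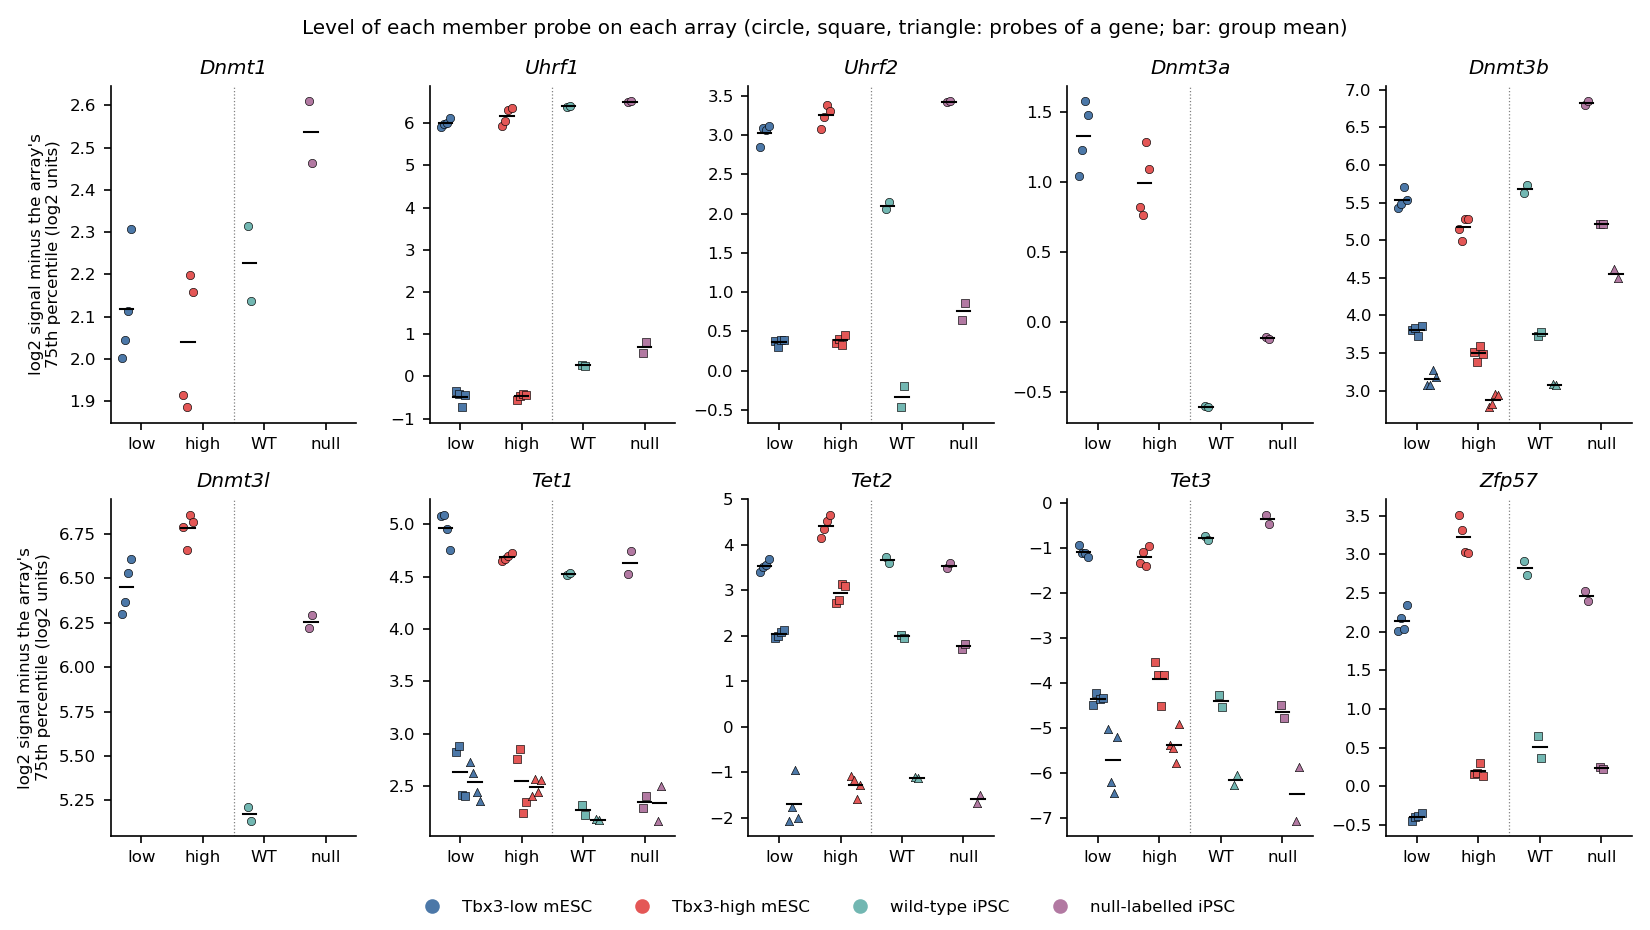
Level of every member probe on every array, as log2 signal minus the array's 75th percentile (vertical axis, log2 units), by group (horizontal axis); points are arrays, bars are group means, and circle, square and triangle mark the probes of 1 gene in order of signal. The Tbx3-high arrays all lie above the Tbx3-low ones for 5 member probes, among them the brightest of Zfp57 and Tet2, and below for 4. The null-labelled arrays all lie above the wild type for 11, among them those of Dnmt3b, Dnmt3l and Uhrf2, and below for 4. Of all probes 28.2% did not overlap in the mESC and 66.5% in the iPSC.

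**Figure D2:**
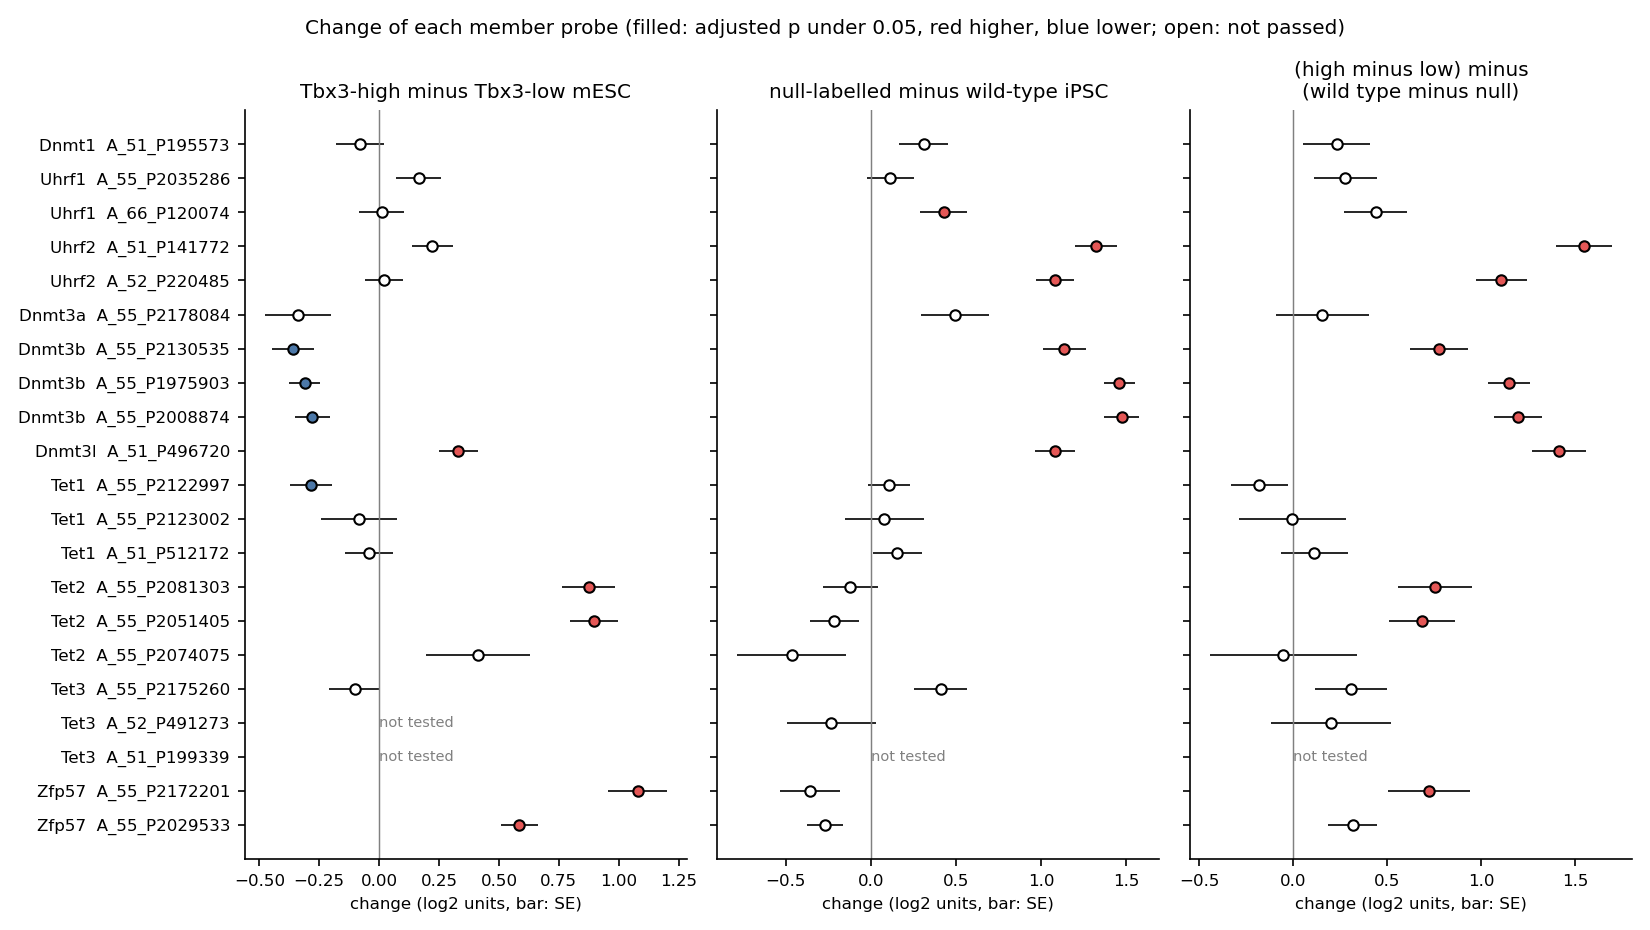
Change of each member probe in log2 units with its SE (horizontal axis) in the mESC, in the iPSC and in the difference between them; filled points passed an adjusted p of 0.05 and open points did not. In the mESC 5 probes lie above 0 and 4 below among the filled points, and in the iPSC all 7 filled points lie above 0.

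The maintenance genes are Dnmt1, the methyltransferase that follows replication, and Uhrf1, the protein that recognises hemimethylated CpG sites and ubiquitinates histone H3. Their levels differed little between the mESC groups. The Dnmt1 probe (A_51_P195573, chr9:20711973-20712341, mm9, minus strand) and the lower Uhrf1 probe (A_66_P120074, chr17:56451668-56452321, mm9, plus strand) each cover 60 bases but span 369 and 654 bases of the genome, so each joins separate stretches of the genome and reads spliced RNA. They are shown because their values stand for joined exons.
Dnmt1 probe: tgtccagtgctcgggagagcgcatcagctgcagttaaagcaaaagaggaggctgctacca
Uhrf1 probe: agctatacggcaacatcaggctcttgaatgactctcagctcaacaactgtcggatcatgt

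Dnmt1 read 2.002, 2.05, 2.11 and 2.31 on the Tbx3-low arrays and 1.91, 1.89, 2.20 and 2.16 on the Tbx3-high arrays. The groups overlapped, and the change was -0.08 ± 0.10 (SE, adjusted p = 0.632) with a 95% interval from -0.30 to 0.14. On the iPSC arrays Dnmt1 read 2.32 and 2.14 in the wild type and 2.61 and 2.46 in the null-labelled samples. Those groups did not overlap, but the change of 0.31 ± 0.14 did not pass (adjusted p = 0.145; 95% interval -0.01 to 0.63).

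The brighter Uhrf1 probe (A_55_P2035286, chr17:56462770-56462829, mm9) read 5.92 to 6.12 in Tbx3-low, 5.94 to 6.36 in Tbx3-high, 6.38 and 6.40 in wild-type and 6.50 and 6.52 in null-labelled samples. Neither change passed, at 0.16 ± 0.10 in the mESC (adjusted p = 0.249) and 0.11 ± 0.14 in the iPSC (0.608). The spliced probe shown above read -0.35, -0.41, -0.73 and -0.45 in Tbx3-low and -0.57, -0.48, -0.41 and -0.45 in Tbx3-high mESC, a change of 0.01 ± 0.10 (0.956). In the iPSC it read 0.27 and 0.25 in the wild type against 0.55 and 0.83, a rise of 0.43 ± 0.14 (SE, adjusted p = 0.0403). That call was lost without null replicate 2 (change 0.29, adjusted p = 0.239) or without either wild-type array (0.129 and 0.133). With every array kept it was lost with normexp background (0.0611), quantile normalization (0.0564), the series table (0.0715), no filter on dim probes (0.0817), the iPSC arrays alone (0.105) and replicate numbers as blocks (0.0916). The Uhrf1 probes thus differed in their call.

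Uhrf2, the relative of Uhrf1 that binds hydroxymethylated DNA and is not known to replace Uhrf1 in maintenance, rose by both of its probes in the iPSC. Its brighter probe (A_51_P141772, chr19:30167958-30168017, mm9) read 2.06 and 2.14 in the wild type and 3.42 and 3.43 in the null-labelled samples, a 2.50-fold rise of 1.32 ± 0.12 (SE, adjusted p = 2.91e-05). The other probe (A_52_P220485, chr19:30130768-30130827, mm9, plus strand) lies 37.2 kb upstream in the gene and is shown because it reads a distant part of the same transcript.
Uhrf2 probe: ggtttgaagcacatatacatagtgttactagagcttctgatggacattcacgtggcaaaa
On the iPSC arrays this probe read -0.47 and -0.19 in the wild type and 0.65 and 0.86 in the null-labelled samples, a rise of 1.09 ± 0.11 (adjusted p = 6.08e-05). By both probes the mean of the null-labelled arrays was more than 2-fold higher, and the groups did not overlap.

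Among the mESC, the brighter Uhrf2 probe read 2.85, 3.09, 3.06 and 3.11 in Tbx3-low and 3.08, 3.22, 3.38 and 3.31 in Tbx3-high samples. The groups overlapped, and the change of 0.22 ± 0.09 missed the threshold (adjusted p = 0.0838) but passed with replicate numbers as blocks (0.0484), with slide rows as blocks (0.0368) and without Tbx3-high replicate 1 (0.0400). The distant probe was at 0.30 to 0.39 in Tbx3-low and 0.33 to 0.45 in Tbx3-high, a change of 0.02 ± 0.08 (0.882).

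The de novo group holds the active enzymes Dnmt3a and Dnmt3b and the cofactor Dnmt3l, which lacks activity of its own and binds unmodified histone H3 tails. Dnmt3b fell in the Tbx3-high mESC, where Dnmt3l rose, and both rose in the null-labelled iPSC. The brightest Dnmt3b probe (A_55_P2130535, chr2:153513403-153513462, mm9) read 5.43, 5.48, 5.71 and 5.53 in Tbx3-low mESC and 5.15, 4.99, 5.28 and 5.29 in Tbx3-high mESC. All Tbx3-high arrays lay below all Tbx3-low arrays, and the fall was -0.36 ± 0.09 (SE, adjusted p = 0.0111). The other Dnmt3b probes, 0.4 and 1.3 kb upstream, fell by 0.28 and 0.31 (adjusted p = 0.0165 and 0.00503), the first call being lost with no filter on dim probes (0.0594).

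On the iPSC arrays the same Dnmt3b probe read 5.63 and 5.73 in the wild type and 6.80 and 6.84 in the null-labelled samples, a 2.20-fold rise of 1.14 ± 0.13 (SE, adjusted p = 9.75e-05). The 2 other probes read 3.73 and 3.78 against 5.21 and 5.22, and 3.09 and 3.07 against 4.61 and 4.49. Their rises were 1.46 ± 0.09 and 1.47 ± 0.10, so the 3 probes agreed in direction in both cell types and the brightest one gave the smallest rise. Group and slide column were confounded for each of them.

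Dnmt3l (probe A_51_P496720, chr10:77526112-77526171, mm9) read 6.30, 6.37, 6.53 and 6.61 in Tbx3-low and 6.79, 6.66, 6.86 and 6.82 in Tbx3-high mESC. The groups did not overlap, and the rise was 0.33 ± 0.08 (SE, adjusted p = 0.0129). It did not pass when each array was centred on its median (0.296, adjusted p = 0.0722). In the iPSC Dnmt3l read 5.21 and 5.14 in the wild type and 6.22 and 6.29 in the null-labelled samples, a 2.12-fold rise of 1.08 ± 0.12 (adjusted p = 8.79e-05).

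Dnmt3a (probe A_55_P2178084, chr12:3914320-3914379, mm9), which besides its role in early development methylates DNA in many adult tissues, read 1.04, 1.23, 1.58 and 1.48 in Tbx3-low and 0.82, 0.76, 1.29 and 1.09 in Tbx3-high mESC. Within each group replicates 3 and 4, on the second slide row, were above replicates 1 and 2, by 0.39 and 0.40 in the means. The change of -0.34 ± 0.14 missed the threshold (SE, adjusted p = 0.0995). It passed once slide rows were blocks (0.00382), with replicate numbers as blocks (0.0128), with the series table (0.0205) and without Tbx3-low replicate 1 (0.0416) or Tbx3-high replicate 3 (0.0370), and the change was -0.34 within each row. In the iPSC the values were -0.60 and -0.61 in the wild type and -0.11 and -0.12 in the null-labelled samples, a change of 0.49 ± 0.20 that did not pass (0.0983). That change passed with normexp background (0.0265), the series table (0.0146), the iPSC arrays alone (0.0460) and replicate numbers as blocks (0.0159). The SE of the main fit uses the spread of all groups. For this probe the standard deviation was 0.24 in each mESC group, 0.0057 in the wild-type and 0.0085 in the null-labelled iPSC.

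Promoter sequences of Dnmt3b and Dnmt3l are shown because these genes moved together in the iPSC and apart in the mESC. They are RefSeq windows on GRCm38.p6, 250 bases before to 50 after the transcription start, with each CpG in capitals, at chr2:153649199-153649498 (plus strand) and chr10:78042037-78042336 (plus strand).
Dnmt3b promoter: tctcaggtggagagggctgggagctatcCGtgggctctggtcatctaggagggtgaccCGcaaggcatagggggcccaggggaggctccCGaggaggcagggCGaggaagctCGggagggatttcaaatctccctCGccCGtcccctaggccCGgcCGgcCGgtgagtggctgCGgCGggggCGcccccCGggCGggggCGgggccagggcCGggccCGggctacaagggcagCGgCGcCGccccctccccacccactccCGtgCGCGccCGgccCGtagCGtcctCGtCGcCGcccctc
Dnmt3l promoter: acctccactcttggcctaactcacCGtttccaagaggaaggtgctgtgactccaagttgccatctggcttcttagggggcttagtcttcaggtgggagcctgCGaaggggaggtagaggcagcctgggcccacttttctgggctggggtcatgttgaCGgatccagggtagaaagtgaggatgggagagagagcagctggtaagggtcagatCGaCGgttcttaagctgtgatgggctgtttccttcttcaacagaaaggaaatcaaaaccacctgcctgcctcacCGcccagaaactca
The Dnmt3b window holds 30 CpG, and 88.3% of the 32851 promoters of the table hold fewer. For Dnmt3l the window holds 6, and the windows of its other listed starts hold 4 and 3, against a median of 7 over all promoters. The promoters of these genes thus differ in CpG content while both transcripts rose in the null-labelled samples.

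The erasers are the dioxygenases Tet1, Tet2 and Tet3, of which Tet1 and Tet2 are the known forms of mouse embryonic stem cells and Tet3 that of the oocyte and zygote. Tet2 was the eraser that rose in the Tbx3-high mESC. Its brightest probe (A_55_P2081303, chr3:133126751-133126810, mm9) read 3.40, 3.52, 3.56 and 3.69 in Tbx3-low and 4.15, 4.34, 4.52 and 4.67 in Tbx3-high mESC. Every Tbx3-high array lay above every Tbx3-low array, and the rise was 0.87 ± 0.11 (SE, adjusted p = 0.000181). A second probe 0.2 kb upstream (A_55_P2051405) read 1.96 to 2.13 and 2.73 to 3.14, a rise of 0.90 ± 0.10 (adjusted p = 7.02e-05).

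The remaining Tet2 probe (A_55_P2074075, chr3:133176421-133176479, mm9) lies 49.7 kb upstream and is assigned by the files to a separate full-length cDNA. It read -2.06, -1.77, -0.94 and -2.01 in Tbx3-low and -1.08, -1.18, -1.60 and -1.27 in Tbx3-high mESC. Tbx3-low replicate 3 was the highest array of its group, and the change of 0.41 ± 0.22 did not pass (adjusted p = 0.200). Without that array it was 0.66 (adjusted p = 0.00432). On the iPSC arrays none of the Tet2 probes passed, and the brightest read 3.73 and 3.59 in the wild type and 3.49 and 3.60 in the null-labelled samples, a change of -0.12 ± 0.16 (0.649; 95% interval -0.48 to 0.24).

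Tet1 gave probes that differ in their call. The brightest (A_55_P2122997, chr10:62274448-62274507, mm9) read 5.08, 5.09, 4.95 and 4.75 in Tbx3-low and 4.65, 4.67, 4.70 and 4.72 in Tbx3-high mESC. It fell by 0.28 ± 0.09 (SE, adjusted p = 0.0329), a call that was lost with replicate numbers as blocks (0.0601), quantile normalization (0.0567), the series table (0.0502) and no filter on dim probes (0.0989), on the second slide row alone (change -0.14, 0.466) and when any mESC array but Tbx3-low replicate 4 was left out (0.0567 to 0.0900). The probe 1.6 kb upstream was at -0.04 ± 0.10 (0.808). Another probe 27.4 kb upstream (A_55_P2123002, chr10:62301856-62301915, mm9, minus strand), at -0.08 ± 0.16 (0.755), is shown because it reads a part of Tet1 far from the others.
Tet1 probe: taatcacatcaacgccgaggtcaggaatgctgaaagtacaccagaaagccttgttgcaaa
This probe read 2.82 and 2.89 on the first slide row and 2.42 and 2.40 on the second in Tbx3-low, and 2.76, 2.86, 2.24 and 2.34 in the same order in Tbx3-high mESC. Its slide rows thus differed by more than its groups. In the iPSC the changes of the 3 Tet1 probes were 0.10, 0.08 and 0.16, none of which passed (adjusted p = 0.595, 0.849 and 0.489).

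Tet3 had 1 probe that was well above background on all arrays (A_55_P2175260, chr6:83319720-83319779, mm9). It read -0.94, -1.10, -1.11 and -1.19 in Tbx3-low and -1.32, -1.08, -1.40 and -0.95 in Tbx3-high mESC, overlapping groups with a change of -0.10 ± 0.11 (adjusted p = 0.546). On the iPSC arrays it read -0.73 and -0.81 in the wild type and -0.25 and -0.47 in the null-labelled samples, a change of 0.41 ± 0.15 that did not pass (0.0764) but passed with normexp background (0.0340), median centring (0.0303) and the series table (0.0205). A probe 34 kb upstream of the last one (A_52_P491273, chr6:83352743-83352802, mm9, minus strand) was well above background on 3 of 4 arrays of each mESC group and was not tested there. It is shown because its signal marks a stretch of Tet3 near the limit of detection.
Tet3 probe: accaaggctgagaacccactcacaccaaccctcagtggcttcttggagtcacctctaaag
In the iPSC that probe changed by -0.23 ± 0.26 (adjusted p = 0.576), with a sign opposite to the brighter probe. The last Tet3 probe (A_51_P199339) was not well above background on any mESC or iPSC array and was not tested.

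Zfp57, a KRAB zinc finger protein that binds methylated imprinting control regions and recruits the corepressor Trim28, rose by both of its probes in the Tbx3-high mESC. Its brighter probe (A_55_P2172201, chr17:37147440-37147499, mm9) read 2.01, 2.17, 2.04 and 2.34 in Tbx3-low and 3.51, 3.31, 3.03 and 3.02 in Tbx3-high samples. The groups did not overlap, and the rise was 1.08 ± 0.12 (SE, adjusted p = 8.17e-05). This was the largest rise of a member probe over all mESC arrays, but within the rows of the slide it was 1.32 and 0.84, and on the second row both brighter Tet2 probes rose more (0.97 and 1.01). The adjoining probe (A_55_P2029533), which lies 75 bases further along, read -0.44, -0.40, -0.38 and -0.35 against 0.16, 0.17, 0.30 and 0.13, a smaller rise of 0.59 ± 0.08 (0.000205).

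In the iPSC both Zfp57 probes were lower in the null-labelled samples and neither passed. The brighter one read 2.91 and 2.73 in the wild type and 2.53 and 2.40 in the null-labelled samples, a change of -0.36 ± 0.18 (adjusted p = 0.173; 95% interval -0.75 to 0.04). The other read 0.65 and 0.36 against 0.25 and 0.22, at -0.27 ± 0.11 (0.0919), and passed without wild-type replicate 2 (-0.41, 0.0257).

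Promoter windows of Tet2 and Zfp57 are shown because these genes rose most in the Tbx3-high mESC, again with each CpG in capitals, at chr3:133544341-133544640 (minus strand) and chr17:37002275-37002574 (plus strand) of GRCm38.p6.
Tet2 promoter: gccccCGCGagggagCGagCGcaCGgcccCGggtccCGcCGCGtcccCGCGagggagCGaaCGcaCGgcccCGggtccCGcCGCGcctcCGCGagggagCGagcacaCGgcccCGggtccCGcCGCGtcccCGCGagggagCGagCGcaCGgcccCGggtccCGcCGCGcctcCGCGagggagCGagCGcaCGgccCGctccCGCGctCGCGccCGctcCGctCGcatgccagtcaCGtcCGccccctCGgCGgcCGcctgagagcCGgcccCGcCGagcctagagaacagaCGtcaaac
Zfp57 promoter: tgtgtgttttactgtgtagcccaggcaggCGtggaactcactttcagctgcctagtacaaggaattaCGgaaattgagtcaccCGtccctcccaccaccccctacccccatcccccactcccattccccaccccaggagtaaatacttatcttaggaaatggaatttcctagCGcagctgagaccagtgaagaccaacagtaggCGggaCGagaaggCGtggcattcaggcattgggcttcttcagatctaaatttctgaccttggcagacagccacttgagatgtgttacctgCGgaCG
Tet2 has 57 CpG in this window, more than 99.8% of all promoters, where the maximum was 67. Zfp57 has 9 in the window shown and 6 and 4 at its other listed starts. Searched on both strands, the T-box core TCACACC occurred in 0 of the 19 promoter windows of the 10 member genes and in 3.98% of the 32851 windows. No match says only that these letters are not in these windows.

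The letters TTTCNCGC, which resemble an E2F site, were found in 3 of the 19 windows, 1 of Dnmt1 and both of Uhrf1, and in 2.09% of all windows. CCAAT was found in 6 of the 19 and in 37.41% of all. The windows of the maintenance genes are shown with TTTCNCGC in capitals on either strand, since the RNA of these members is known to rise with S phase. They lie at chr9:20952574-20952873 (minus strand) and chr17:56304063-56304362 (plus strand) of GRCm38.p6.
Dnmt1 promoter: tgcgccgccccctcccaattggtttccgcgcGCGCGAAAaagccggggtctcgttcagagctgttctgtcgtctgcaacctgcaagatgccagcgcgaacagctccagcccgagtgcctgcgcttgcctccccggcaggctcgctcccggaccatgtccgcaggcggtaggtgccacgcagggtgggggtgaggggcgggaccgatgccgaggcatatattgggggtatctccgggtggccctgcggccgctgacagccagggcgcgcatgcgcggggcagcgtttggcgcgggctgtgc
Uhrf1 promoter: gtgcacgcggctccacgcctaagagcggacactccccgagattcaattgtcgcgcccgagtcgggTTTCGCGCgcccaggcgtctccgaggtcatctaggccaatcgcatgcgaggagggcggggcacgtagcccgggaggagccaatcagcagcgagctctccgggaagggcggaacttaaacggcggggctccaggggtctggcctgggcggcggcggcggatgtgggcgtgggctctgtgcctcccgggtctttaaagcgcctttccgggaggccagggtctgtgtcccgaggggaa
The match starts at base 32 of the Dnmt1 window and at base 66 of the Uhrf1 window.

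S phase genes went both ways in the mESC, where 2 of 20 tested rose and 3 fell. Gins2, a subunit of the replicative helicase complex, rose by 0.62 ± 0.09 and Ccne1, a cyclin of S phase entry, was at -0.68 ± 0.07 (SE, adjusted p = 4.76e-05). In the iPSC 4 of 21 rose and 0 fell, Ccne1 by 0.72 ± 0.10 and the chromatin assembly subunit Chaf1b by 0.69 ± 0.14 (adjusted p = 0.000488 and 0.00375). Among all genes 30.4% passed in the mESC and 35.2% in the iPSC, by the probe of highest signal.

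The difference between the labelled groups of the mESC was set against that of the iPSC, as (high minus low) minus (wild type minus null). Dnmt3b, Dnmt3l, Tet2, Uhrf2 and Zfp57 passed, with 9 of 20 probes higher and 0 lower, where 22.3% of all 37071 probes passed, 12.2% higher and 10.1% lower. The median was 0.38 over the member probes and 0.09 over all probes. The brighter Uhrf2 probe was at 1.55 ± 0.15 (SE, adjusted p = 7.5e-05) and Dnmt3l at 1.41 ± 0.14 (0.000107). For Uhrf2 and Dnmt3l most of this came from the iPSC, where the null-labelled arrays were the higher ones.

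Dnmt3b gave 0.78, 1.15 and 1.19 over its probes (adjusted p = 0.0056, 7.93e-05 and 0.00014), with a fall in the Tbx3-high mESC and a larger rise in the null-labelled iPSC. Tet2 gave 0.76 ± 0.20 and 0.68 ± 0.18 (0.0212 and 0.0196), a rise in the Tbx3-high mESC with no passed change in the iPSC. The Tet2 calls were lost without null replicate 2 (0.0746 and 0.0715) or wild-type replicate 2 (0.0800 and 0.0666), and the call of the second probe also without wild-type replicate 1 (0.0551). Zfp57 passed by its brighter probe alone, at 0.72 ± 0.22 (0.0379), and the call was lost with replicate numbers as blocks (0.0824), quantile normalization (0.0890), the series table (0.0755) and no filter on dim probes (0.0732), and without any 1 of the 4 iPSC arrays, Tbx3-low replicate 1, 2 or 3 or Tbx3-high replicate 2 (0.0577 to 0.131). The other Zfp57 probe, at 0.32 ± 0.13 (0.118), passed without wild-type replicate 1 (0.0395). Dnmt1, Dnmt3a, Tet1, Tet3 and Uhrf1 had no probe that passed.

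The split of 9 higher to 0 lower and the order of these values hold for the iPSC labels as given, which the Tbx3 probe does not check. With the iPSC direction turned, as (high minus low) minus (null minus wild type), a fit added after these values had been seen, 4 of 20 member probes were higher and 7 lower. Of all probes 28.8% then passed, 13.9% higher and 14.9% lower. Dnmt3b was then at -1.50, -1.77 and -1.75 over its probes, Dnmt3l at -0.75, Uhrf2 at -1.10 and -1.06 and Dnmt3a at -0.83 ± 0.25 (SE, adjusted p = 0.0285). Tet2 stayed higher at 0.99 and 1.11 and Zfp57 at 1.43 and 0.85. The sign for Dnmt3b, Dnmt3l and Uhrf2 thus turned with the label, and that of Zfp57 and of these Tet2 probes did not. This follows from the changes already given, the iPSC one being larger in size for the former and the mESC one for the latter. It is no separate check of the label.

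Samples 1 and 2 of both mESC groups lay on the first row of the slide and samples 3 and 4 on the second, so the high minus low change could be read within each row. By its brightest probe Tet2 was at 0.78 and 0.97, Dnmt3l was at 0.39 and 0.27, and the Dnmt3b probes lay between -0.39 and -0.25. With the 2 and 2 arrays of the second row alone, the calls of Dnmt3l (adjusted p = 0.102) and of the Dnmt3b probes (0.0738, 0.134 and 0.0946) were lost, and with the first row alone that of the dimmest Dnmt3b probe (0.0898), while the distant Tet2 probe passed on the first row (0.0078). Among all probes 21.9% in Tbx3-low and 20.4% in Tbx3-high differed by at least 0.3 between the rows.

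**Figure D3:**
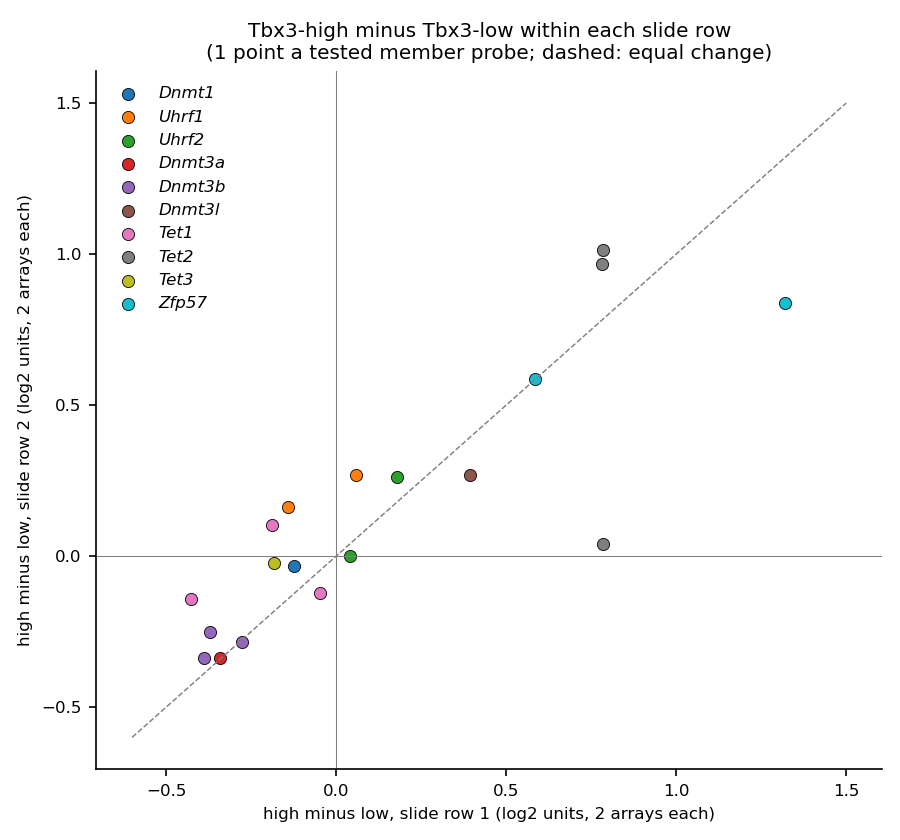
Tbx3-high minus Tbx3-low change of each tested member probe on the first slide row (horizontal axis) and on the second (vertical axis), in log2 units, each from 2 arrays a group; the dashed line marks equal changes. The Tet2 and Zfp57 probes that passed lie far above 0 on both axes and the Dnmt3b probes below 0, while the distant Tet2 probe was at 0.79 on the first row and 0.04 on the second.

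Other genes of the pathway were read from a list of 53 partners, readers, repair enzymes and suppliers of the methyl donor, by their probe of highest signal. In the mESC 10 of 52 tested rose and 8 fell, 34.6% against 30.4% of all genes (15.8% higher and 14.5% lower), and in the iPSC 10 of 52 rose and 3 fell, 25.0% against 35.2% (20.2% higher and 15.1% lower). The list medians were -0.0039 and 0.06, and those of all genes 0.02 and 0.08. Dppa3, a maternal factor that shields chromatin from Tet3 and keeps Uhrf1 off it, read 2.99, 2.82, 3.08 and 3.02 in Tbx3-low and -0.30, -0.36, -0.03 and -0.32 in Tbx3-high mESC. That was a fall of -3.23 ± 0.09 (SE, adjusted p = 5.36e-09). In the null-labelled iPSC Dppa3 rose by 3.39 ± 0.13, from 0.04 and 0.07 to 3.51 and 3.38.

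Gadd45g, a stress-response gene linked to demethylation by repair, changed in the same directions, at -1.89 ± 0.08 in the mESC and 4.06 ± 0.12 in the iPSC. The other large mESC changes were in Suv39h1, a histone H3 lysine 9 methyltransferase, at -0.55 ± 0.07, and Kdm2b, a CpG island-binding demethylase, at 0.53 ± 0.08. In the null-labelled iPSC Ctcfl, a testis-specific relative of the insulator protein Ctcf, fell by 1.55 ± 0.25, and was well above background on 1 of the 2 null-labelled arrays. Zbtb4, a zinc finger protein that binds methylated DNA, fell by 1.28 ± 0.21. Trim28, the corepressor that Zfp57 recruits, was at -0.04 ± 0.08 in the mESC (adjusted p = 0.755) and rose by 0.44 ± 0.11 in the iPSC (0.0146). Hells, a chromatin remodeller needed for methylation, did not pass in either, at 0.10 ± 0.09 (0.454) and -0.18 ± 0.13 (0.354).

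Germline genes whose promoters DNA methylation is known to silence were read next to the enzymes. In the mESC 2 of 12 tested rose and 5 fell, with a median of -0.22, and in the iPSC 1 of 14 rose and 9 fell, with a median of -1.05. Of all genes 15.8% rose and 14.5% fell in the mESC and 20.2% rose and 15.1% fell in the iPSC, with medians of 0.02 and 0.08. The largest falls in the null-labelled iPSC were those of Tex101, a testis surface protein, at -4.17 ± 0.26, and Dazl, an RNA-binding protein of germ cells, at -4.07 ± 0.16 (SE, adjusted p = 1.94e-06 and 8.49e-08). Asz1, a protein of the piRNA pathway, was at least 5.53-fold lower, being not well above background on either null-labelled array. This bound takes each dim array at the higher of its own signal and the lowest signal well above background there. Dazl read 3.86 and 3.61 in the wild type and -0.38 and -0.29 in the null-labelled samples. On the separate slide of the 8 mESC arrays it read -1.31 to -0.45, and levels were not compared between slides.

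Among the mESC the largest falls of that list were in Sycp1 and Sycp3, proteins of the synaptonemal complex, and in Tex101. Sycp1 was at -0.97 ± 0.12, Sycp3 at -0.76 ± 0.08 and Tex101 at -0.61 ± 0.18 (adjusted p = 0.000201, 6.18e-05 and 0.0275). Dazl rose by 0.52 ± 0.11 (0.00584) in the same cells. Whether the levels of the methylation genes bear on these germline transcripts was not tested.

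**Figure D4:**
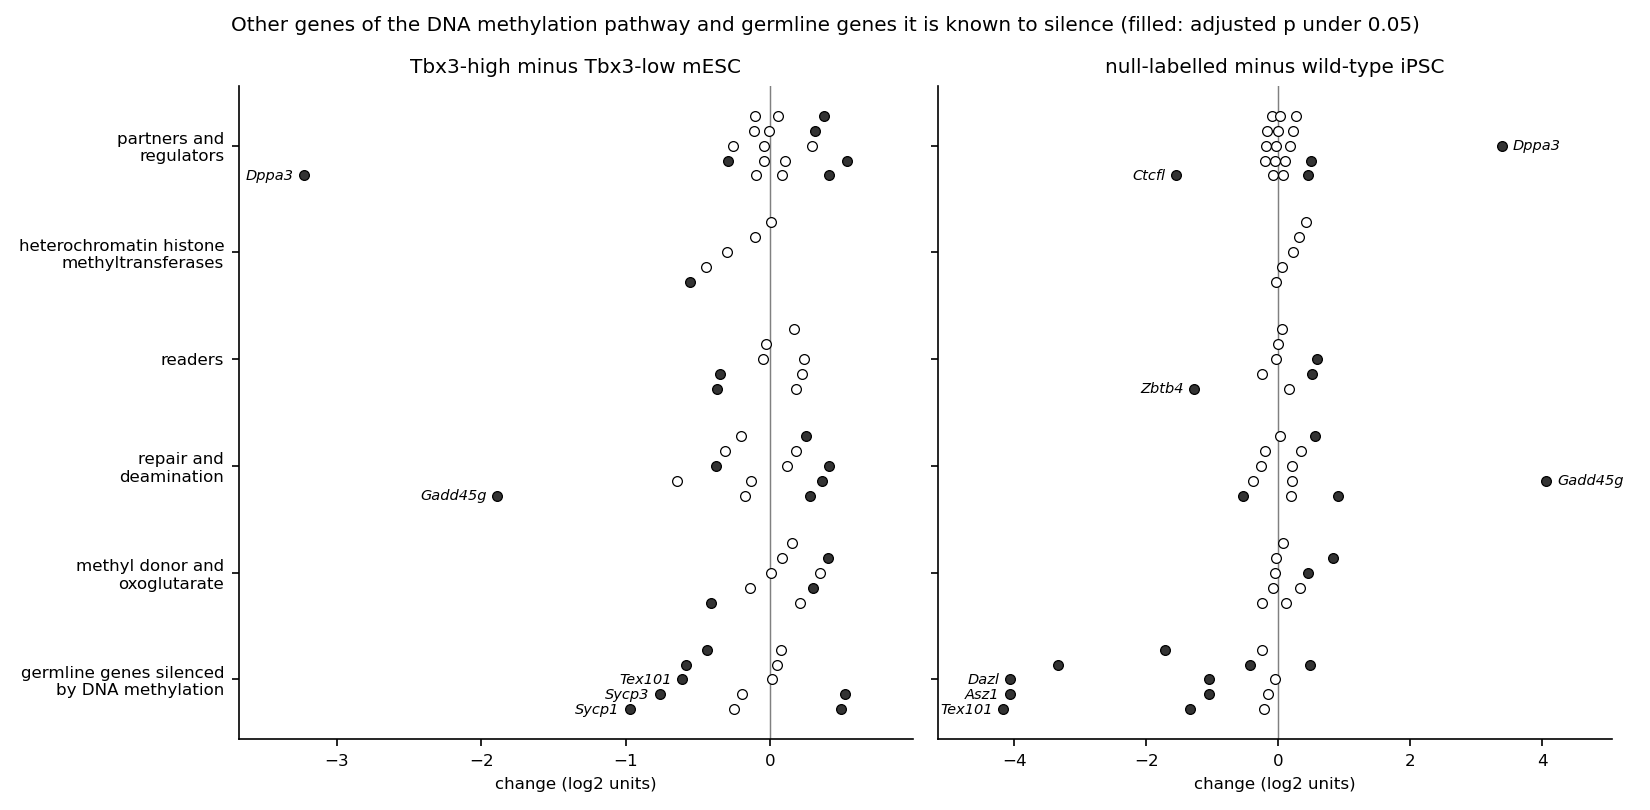
Changes in log2 units (horizontal axis) of the other pathway genes and of germline genes that DNA methylation is known to silence, by role (vertical axis, spread within a role for legibility), with filled points past an adjusted p of 0.05. Dppa3 and Gadd45g lie far to the left in the mESC and far to the right in the iPSC, and 9 of 14 germline genes lie left of 0 among the filled points in the iPSC; Asz1 is drawn at its fitted change.

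Markers of other cell states moved with some of these results, and their counts stand against the 30.4% of all genes that passed in the mESC (15.8% higher and 14.5% lower) and 35.2% in the iPSC (20.2% higher and 15.1% lower). Of 5 markers of the formative or primed epiblast (Fgf5, Otx2, Pou3f1, Fgf15 and Pim2) all 5 were lower in the Tbx3-high mESC, where Dnmt3b was lower. Their mean level was 0.23 to 0.45 on the Tbx3-low arrays and -1.59 to -1.21 on the Tbx3-high ones, with Fgf5 not well above background in the latter. In the iPSC 3 of the 5 were higher in the null-labelled samples, with mean levels of -2.66 and -2.45 in the wild type and -2.19 and -1.95 in the null-labelled arrays. In a bulk sample, fewer cells of a state and less RNA per cell cannot be told apart, and the part of these markers in the Dnmt3b, Tet2 and Zfp57 changes was not tested.

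Primitive endoderm markers went the other way, with 4 of 8 higher in the Tbx3-high mESC (means of -2.06 to -1.67 in low and -1.52 to -1.05 in high) and 4 of 8 lower in the null-labelled iPSC (-2.75 and -2.73 against -3.59 and -3.53). Pdgfra and Foxa2 were not well above background in the null-labelled iPSC, so the means there include dim values. Of 12 fibroblast markers, which feeder cells would carry, 3 rose and 1 fell of 8 tested in the mESC, and 3 rose and 3 fell of 11 tested in the iPSC. Postn and Lum were not well above background in the mESC groups or the wild-type iPSC, nor was Dcn in the Tbx3-high mESC. Postn and Col3a1 were not in the null-labelled iPSC. Well above background on every array of the group were 8 of the 12 in Tbx3-low, 8 in Tbx3-high, 10 in wild-type and 9 in null-labelled samples. The fibroblast means were -2.29 to -2.11 in Tbx3-low, -1.97 to -1.79 in Tbx3-high, -2.31 and -2.08 in wild-type and -2.27 and -2.25 in null-labelled samples. Of 5 neural markers 1 rose and 1 fell of 4 tested in the mESC, and 3 rose and 0 fell in the null-labelled iPSC. Of the 10 pluripotency markers 4 rose and 1 fell in the Tbx3-high mESC, and 0 rose and 0 fell in the null-labelled iPSC. None of these lists was tested for a part in the member changes.

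For each member the genes most like it were taken as those whose probe of highest signal correlated best with that of the member over the 12 arrays, each cell type centred on its own mean, among 16904 genes. These likenesses rest on the differences between the 4 groups and on arrays that share slides, and they are descriptions. Dnmt3b was followed most closely by Pwwp2b (r = 0.988), which changed by -0.65 in the mESC and 1.74 in the iPSC, and by Magohb (r = 0.986), at -0.32 and 1.11. Nearest to Dnmt3l was Ube2l6 (r = 0.991), at 0.58 and 1.86. Uhrf2 was matched by Zfp68 (r = 0.990), at 0.11 and 1.11.

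The nearest genes to Tet2 were Polr2a (r = 0.981), at 0.36 and -0.08, and Eogt (r = 0.979), at 0.48 and -0.09. Zfp57 was followed by Klhl17 (r = 0.984), at 0.56 and -0.13, and by Syde1 (r = 0.979), at 0.43 and -0.10. The best correlations of the other members were 0.981 for Dnmt3a with Usf2, 0.958 for Dnmt1 with Prkcz, 0.957 for Uhrf1 with Gmcl1, 0.939 for Tet3 with Cdh12 and 0.936 for Tet1 with Oga.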

How the data were processed

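Cy3-labelled total RNA of 12 samples was read on 1 Agilent array each, whose probes the files place on mm9. The deposited processed intensity was made by Agilent Feature Extraction 10.7.3.1, per the file headers, with background subtracted and spatial trends removed, beside the mean and local background intensity. The authors' series table gives log2 values whose scaling, centring and background treatment are unknown (column medians 6.58 to 6.61; it correlates with the log2 mean intensity at r of at least 0.9988), and served as an alternative.

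Spots marked as outliers were set missing, spots of a probe averaged, and log2 processed intensity was scaled to the 75th percentile of the non-control probes of its array. A probe was tested if at least 1 group compared had it well above background throughout. limma 3.58.1 (R 4.3.3) fitted 4 group means over 12 arrays, and the scripts were tested on simulated data. Tables and plots were made in Python 3.11.15 (pandas 2.3.3, matplotlib 3.10.9). The number of arrays limits the precision. Genes other than members were named through RefSeq by accession (27741 probes) or symbol (3347), and promoters are RefSeq's.

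Members and gene lists were chosen with earlier results of these data known. Of the other pathway genes the text names the 4 with the largest passed change in each comparison plus Dppa3, Trim28 and Hells, of the germline genes the 3 largest, of the S phase genes the 2 largest, and for likeness up to 2 genes a member. Same-numbered arrays of the mESC deviated together in each pair (r of 0.154, 0.244, 0.166 and 0.119). Differently numbered arrays of 1 slide row also did (0.0405 to 0.338), and those of different rows did not (-0.300 to -0.0741). Pairing by number and by slide row thus cannot be told apart. The main fit paired no samples, and replicate numbers and slide rows served as blocks only in alternatives. Blocked values stand beside results whose call they change. The alternatives are other background correction, scaling, filter, weights, blocks, probes, slide rows and left-out arrays, and the iPSC direction turned, added after the data were seen.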

Additional observations from a re-analysis of the deposited data

Results flagged for a closer look

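The mESC change differed from the iPSC change for 9 of 20 tested member probes, of 5 genes. This difference was taken as (high minus low) minus (wild type minus null). Of all 37071 probes 22.3% passed it, 12.2% higher and 10.1% lower. With the labels as given, the values were 0.776, 1.15 and 1.19 for the Dnmt3b probes, 1.41 for Dnmt3l, 0.755 and 0.685 for the Tet2 probes near the end of the gene, 1.55 and 1.11 for Uhrf2, and 0.723 for the brighter Zfp57 probe. The adjusted p-values (limma, Benjamini-Hochberg) ran from 7.5e-05 for Uhrf2 to 0.0379 for Zfp57. The Tbx3 probe does not check the null label, so the direction of the iPSC part rests on the labels. With that direction turned the values were -1.50, -1.75 and -1.77 for Dnmt3b, -0.75 for Dnmt3l and -1.10 and -1.06 for Uhrf2, and 0.99 and 1.11 for Tet2 and 1.43 for Zfp57.

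In 1 of 42 groups of 4 arrays the gap between an extreme array and its nearest neighbour was past Dixon's critical value. Tbx3-low replicate 2 read 0.30 by the distant Uhrf2 probe, and the other Tbx3-low arrays read 0.380 to 0.392. Chance alone marks about 1 in 20 such groups, and this gap is small beside the iPSC change of 1.09 by the same probe.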

How the results depend on the processing

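Of 59 changes of single member probes, 25 passed the threshold. Of these 16 kept their direction and their side of the threshold in every processing alternative run, 9 lost the call at least once and 0 changed sign. The turned iPSC direction is not counted here. With it the 6 differences that otherwise kept their call, those of Dnmt3b, Dnmt3l and Uhrf2, changed sign. Of the 34 others 7 passed in at least 1 alternative and 12 changed sign at least once, all at small values. The number of passed probes was 7688 in the mESC, 10321 in the iPSC and 8260 for the difference. Slide row 1 alone gave 4666 and row 2 alone 4342 in the mESC, with 4 member probes on row 2 in place of 9, from fewer arrays. One probe a gene gave 6593 in the iPSC, from fewer features tested. Leaving out single arrays gave 6439 to 7044, 6757 to 8136 and 5442 to 7736 passed probes, the lowest iPSC and difference counts without wild-type replicate 1, and 8 to 9, 6 to 7 and 6 to 9 member probes. The replicate number as a block gave 7880, 9626 and 7329 passed probes and 10, 7 and 8 member probes. In the iPSC the deviations of same-numbered samples correlated at r = 0.0028. With 2 arrays a group every pair gives this same value but for its sign, so it cannot tell whether the samples were paired. Median centring moved the median of all probes by 0.106 in the iPSC, and no member call changed direction with it.

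The sign changes were these, and the cause was not tested. For the spliced Uhrf1 probe in the mESC the change was -0.012 with normexp background, -0.0085 with quantile normalization, -0.025 with median centring, -0.029 with the series table, -0.026 with array weights and -0.14 on slide row 1. The distant Uhrf2 probe in the mESC was at -0.014 with median centring. The Tet1 probe A_51_P512172 was at 0.10 on slide row 2 in the mESC, and its difference at -0.0056 with quantile normalization and -0.038 with the series table. Probe A_55_P2123002 of Tet1 was at -0.025 with normexp, -0.022 with quantile normalization and -0.11 with the series table in the iPSC, and its difference at 0.066 with median centring. The brightest Tet1 probe was at -0.058 in the iPSC with quantile normalization. The distant Tet3 probe was at 0.12 in the iPSC with normexp. The brighter Uhrf1 probe was at -0.081 with quantile normalization and -0.093 with the series table in the iPSC. The difference of the distant Tet2 probe was 0.019 with median centring and 0.040 with array weights. With single arrays left out, ranges crossed 0 for Tet1 A_51_P512172 (mESC -0.10 to 0.021, iPSC -0.011 to 0.32, difference -0.054 to 0.28), Tet1 A_55_P2123002 (mESC -0.19 to 0.019, difference -0.11 to 0.099), the brightest Tet1 probe (iPSC -0.0031 to 0.21), the distant Tet2 probe (difference -0.17 to 0.20), the spliced Uhrf1 probe (mESC -0.073 to 0.055) and the distant Uhrf2 probe (mESC -0.00078 to 0.041). The fit on the arrays of the comparison alone does not apply to the difference. Dim signal limited Tet3, which rests on 1 probe in the mESC and 2 in the iPSC. With the iPSC direction turned, 10669 probes and 11 member probes passed in the difference.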

Other observations

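Probes with a gene name within 60 kb of a member probe (mm9) were listed after the member values had been seen, so what follows is description. The shares of all probes given beside them also cover probes without a gene name. Near Zfp57, 4 of 6 tested probes rose in the Tbx3-high mESC and 0 fell, where 25% of all probes passed, 13.2% higher and 11.8% lower. The transcript 2410137M14Rik, 32.0 kb away, read -1.18 to -1.03 in Tbx3-low and 0.14 to 0.34 in Tbx3-high samples, a rise of 1.33 ± 0.09 (SE, limma adjusted p = 3.02e-06). H2-M5, a non-classical histocompatibility gene, rose by 1.56 ± 0.22 by 1 of its 2 probes, and the other was too dim to test. The GABA receptor subunit Gabbr1 rose by 0.79 ± 0.17 and the polymerase I subunit Znrd1 by 0.36 ± 0.08. Mog, a myelin gene whose probe lies 703 bases from that of Zfp57, did not pass at 0.05 ± 0.09, nor did Znrd1as at 0.05 ± 0.11.

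In the null-labelled iPSC, where 28.1% of all probes passed, 15.5% higher and 12.6% lower, 1 of 7 rose and 1 fell near Zfp57. There 2410137M14Rik fell by 0.50 ± 0.14 (adjusted p = 0.0199), H2-M5 was at -0.37 ± 0.33 (0.457), and Znrd1 rose by 0.35 ± 0.12 (0.0478).

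Near Dnmt1, 2 of 5 tested probes fell and 0 rose in the mESC, and 2 rose and 2 fell in the iPSC. Of all probes 13.2% rose and 11.8% fell in the mESC, and 15.5% rose and 12.6% fell in the iPSC. The interferon-inducible antiviral gene Shfl, 33.2 kb away, fell by 0.70 ± 0.09 in the Tbx3-high mESC (adjusted p = 0.000212) and rose by 1.75 ± 0.13 in the null-labelled iPSC (6.85e-06), while Dnmt1 itself passed in neither. S1pr2, a receptor of sphingosine 1-phosphate, fell by 0.42 in the mESC (0.0138). In the iPSC the translation factor subunit Eif3g rose by 0.48 (0.0080), while Angptl6 and Ppan fell by 0.73 and 0.31 (0.00146 and 0.0388).

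Near Tet3, both Bola3 probes rose in the mESC, by 0.30 and 0.31 (adjusted p = 0.0157 and 0.00726), and 1 of the 3 Mob1a probes fell in the iPSC, by 0.51 (0.0118). Near Uhrf1, the lipid droplet gene Plin3 rose by 0.60 in the iPSC (0.0116). Probes near Dnmt3a (3), Dnmt3l (3 tested of 4) and Uhrf2 (1 tested of 2) did not pass in either comparison. No probe of another named gene lay within 60 kb of those of Dnmt3b, Tet1 or Tet2.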
